A study of Mus musculus with 4 samples.

Results

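Erythroid and megakaryocyte transcription factors were followed in mouse bone marrow cultures flown in space and in parallel cultures on the ground. They were Klf1, Gata1, Gata2, Tal1, Lmo2, Gfi1b, Nfe2, Lyl1, Zfpm1 and Ldb1, and every probe set with 1 of these as its only symbol in the platform annotation was taken. This gave 12 of the 45101 probe sets in the deposited table, for all 10 genes: 2 probe sets each for Gata2 and Zfpm1 and 1 for each other gene.

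Both groups were cells of pooled marrow from 21 C57BL/6 mice older than 8 weeks, freed of red cells by lysis and grown at 37 °C with 1.5 µg/ml macrophage colony-stimulating factor (M-CSF), which drives marrow progenitors towards macrophages. The space flight group consisted of 2 arrays of cultures lysed on culture day 15, flight day 14. The ground control group consisted of 2 arrays of cultures kept on the same temperature schedule and also taken on culture day 15. In both groups medium was added on day 6. Each array held RNA of 2 culture barrels combined, and the 4 arrays were chosen for RNA quality from 4 such pools per group. Since all cultures came from 1 pool of marrow, the spread between arrays is that between cultures and not between animals.

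These factors act together in red cell and platelet development. Gata1 and Gata2 are zinc finger proteins that bind GATA sequences, Tal1 and Lyl1 are related basic helix-loop-helix proteins that bind E-boxes with a partner, and Lmo2 and Ldb1 bridge both kinds of protein in 1 complex. Gata2 serves mainly stem cells, progenitors and mast cells and gives way to Gata1 as red cells and megakaryocytes mature. Klf1 then switches on adult globin and red cell membrane genes through CACCC sequences, and Zfpm1 is the cofactor of Gata1. Gfi1b is a zinc finger protein that represses transcription and acts within both lineages. Nfe2 with a small Maf protein acts in globin expression and platelet release.

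Promoter windows from RefSeq (GRCm38.p6) run from 250 bases before an annotated transcript start to 50 bases after it, and were found for 8 of the 10 genes, 12 windows in all; Lmo2 and Nfe2 had no entry. They were searched on both strands for 3 motifs: GATAA for GATA factors, CACCC for Klf1-type factors and the E-box CANNTG. At least 1 GATAA lay in 4 of the 12 windows, against 25.4% of the 32851 windows of all genes in the table. CACCC lay in 10 of the 12 windows (57.5% of all windows) and CANNTG in 7 of the 12 (72.3%). A match describes letters and is not a measured binding site. The 4 windows with GATAA are shown because they include those of Klf1, Gfi1b and Ldb1, the genes whose differences are described first below. Lyl1 and the other Ldb1 starts had no GATAA, and a link between motif and difference was not tested. Capitals mark GATAA or its reverse complement TTATC. In Klf1 (chr8:84901732-84902031, plus strand) the match began at position −80 from the start. In Gfi1b (chr2:28621933-28622232, minus strand) it began at position −119, just before an E-box, and a CACCC further upstream shared 1 base with another E-box. The first of 2 Tal1 starts (chr4:115056176-115056475, plus strand) had a match beginning at position −205, and the third of 3 Ldb1 starts (chr19:46037021-46037320, minus strand) had matches beginning at positions −240 and −200.
Klf1: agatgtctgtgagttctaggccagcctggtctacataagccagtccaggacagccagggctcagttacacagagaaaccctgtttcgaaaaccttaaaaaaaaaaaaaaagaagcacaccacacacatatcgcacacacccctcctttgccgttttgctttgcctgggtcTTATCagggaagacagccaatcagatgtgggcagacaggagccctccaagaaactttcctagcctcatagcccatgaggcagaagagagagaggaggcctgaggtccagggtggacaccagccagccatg
Gfi1b: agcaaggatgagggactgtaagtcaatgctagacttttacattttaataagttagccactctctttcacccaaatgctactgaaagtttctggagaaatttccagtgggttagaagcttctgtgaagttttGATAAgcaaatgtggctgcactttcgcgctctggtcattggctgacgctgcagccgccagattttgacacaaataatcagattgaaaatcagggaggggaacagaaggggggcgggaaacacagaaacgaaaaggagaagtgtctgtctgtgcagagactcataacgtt
Tal1: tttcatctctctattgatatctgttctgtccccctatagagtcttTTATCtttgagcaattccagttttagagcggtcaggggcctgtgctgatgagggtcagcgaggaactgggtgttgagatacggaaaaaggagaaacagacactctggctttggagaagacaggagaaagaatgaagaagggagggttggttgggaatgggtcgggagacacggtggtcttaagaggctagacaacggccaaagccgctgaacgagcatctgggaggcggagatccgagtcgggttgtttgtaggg
Ldb1: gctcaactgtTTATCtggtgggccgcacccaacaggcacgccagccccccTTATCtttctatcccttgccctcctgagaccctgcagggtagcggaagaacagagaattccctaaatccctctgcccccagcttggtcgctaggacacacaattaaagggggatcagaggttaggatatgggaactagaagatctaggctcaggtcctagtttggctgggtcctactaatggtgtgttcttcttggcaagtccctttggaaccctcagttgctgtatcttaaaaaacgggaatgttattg

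**Figure D1:**
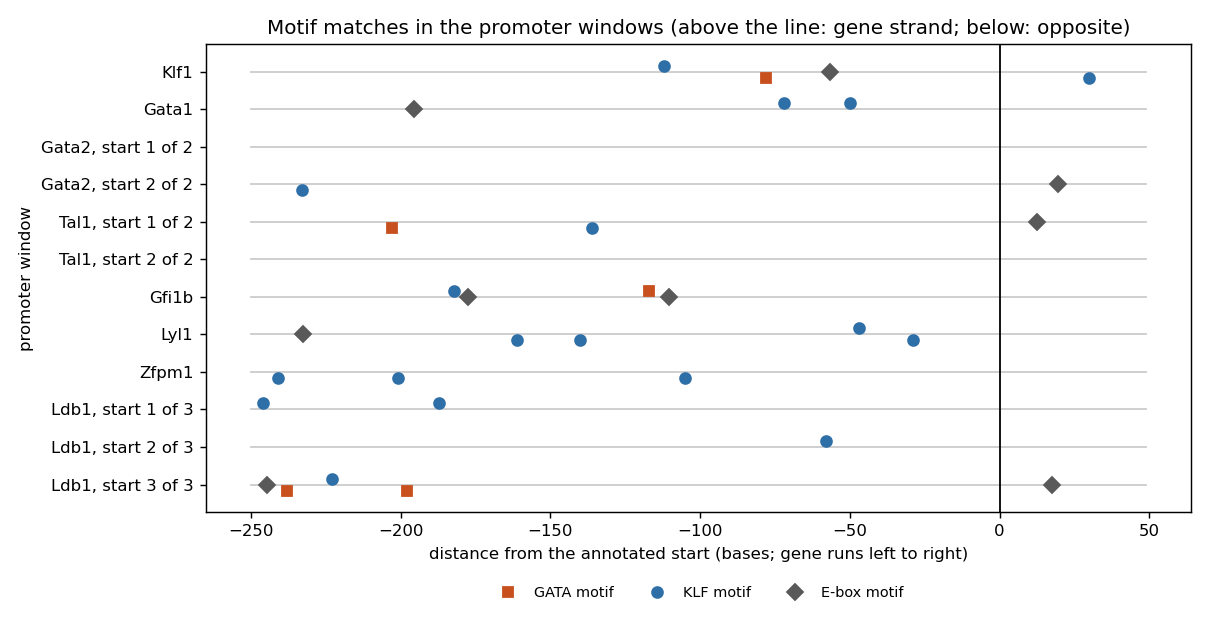
Motif matches in the 12 promoter windows of 8 factor genes; the x axis is the distance from the annotated start in bases, symbols above a line are on the gene's strand and those below it on the opposite strand, and E-boxes, whose pattern reads the same on both strands, lie on the line. Squares (GATAA) appear in 4 windows, those of Klf1, Gfi1b, 1 Tal1 start and 1 Ldb1 start, and 2 windows, the first Gata2 start and the second Tal1 start, hold none of the 3 motifs.

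Values below are quantile normalized log2(intensity + 16), called levels, and a difference is the space flight mean less the ground control mean on that scale, which understates the change of dim genes. The dim limit is 6.40, the median over the 45037 probe sets that are not controls, and 10 of the 12 member probe sets reached it in their mean over the 4 arrays, the dimmer ones of Gata2 and Zfpm1 excepted. In flight Gfi1b and Klf1 had levels 2.79-fold and 2.57-fold those on the ground, Ldb1 2.16-fold, Nfe2 2.14-fold and Lyl1 1.49-fold. Gata2 had lower levels on both of its probe sets, by 1.31-fold on the brighter one, while on the other the flight values were too dim for the size to be fixed. The levels of Gata1, Tal1, Lmo2 and Zfpm1 differed by 1.34, 1.29, 1.25 and 1.36-fold on the brighter probe set of each. No member passed limma's test with Benjamini-Hochberg adjustment over all 45037 probe sets at 0.05, where 0% of probe sets passed. None of these differences is therefore established once the number of probe sets tested is allowed for. Adjusted p-values of the 12 ran from 0.388 to 0.884. At an unadjusted p under 0.05, 4 of the 12 were higher (4.14% of all probe sets) and 1 was lower (4.6%). Both space flight levels lay above both ground control levels for 6 of the 12 (19.1% of all probe sets), both lay below for 3 (19.4%), and the groups overlapped for 3. With each gene at the probe set of highest mean level, the median difference of the 10 genes was 0.51, against 0.03 over all 18193 genes. When 11141 genes were tested with 1 probe set each and the dim ones left out, 0.0628% of genes passed and again no member did, with adjusted p-values from 0.205 for Klf1 to 0.760 for Gata1.

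**Figure D2:**
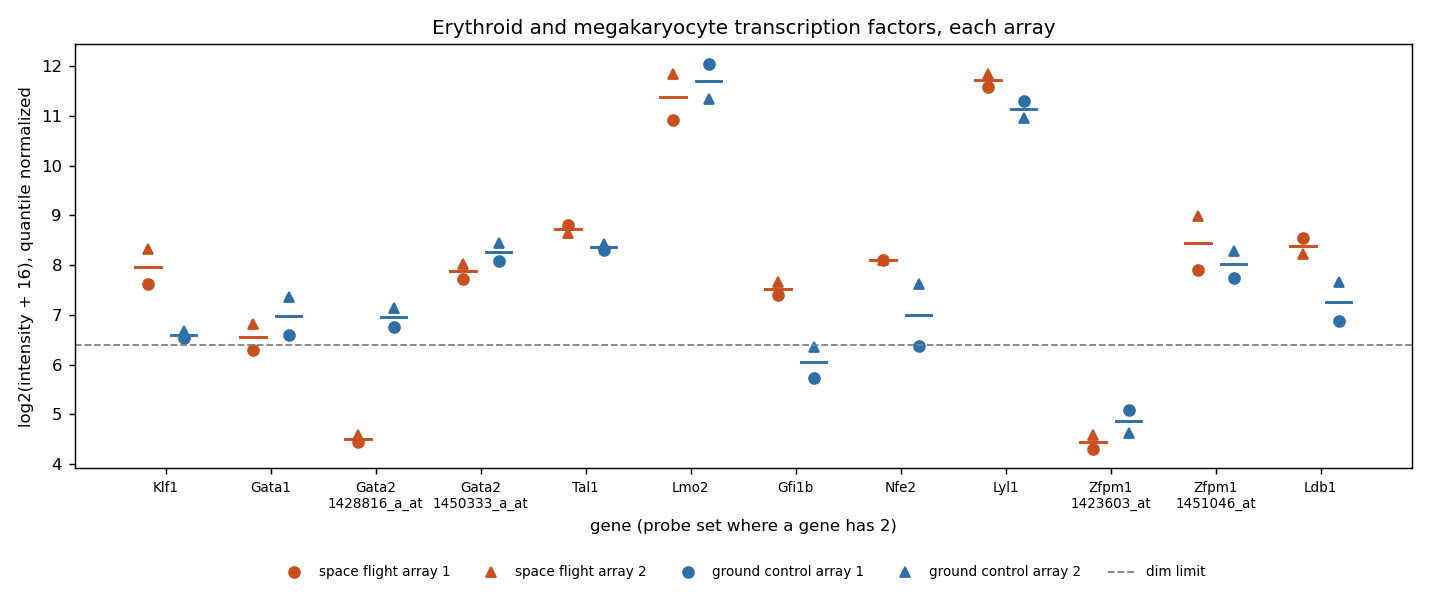
Level of each of the 12 probe sets on each of the 4 arrays; the y axis is quantile normalized log2(intensity + 16), circles are arrays 1, triangles arrays 2, short bars group means and the dashed line the dim limit of 6.40. Klf1, Gfi1b, Nfe2, Ldb1, Lyl1 and Tal1 have both space flight points above both ground control points, and both probe sets of Gata2 and the dim one of Zfpm1 have them below.

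Klf1, the activator of adult globin genes, stood at 7.61 on array 1 and 8.32 on array 2 of space flight, against 6.53 on array 1 and 6.68 on array 2 of ground control; later values follow that array order. The space flight levels were both higher, with array 2 above array 1, and the ground control arrays lay close to each other, just above the dim limit. The flight arrays averaged 7.97 ± 0.50 and the ground control arrays 6.61 ± 0.11 (SD, n = 2 each), a difference of 1.36 ± 0.52 (SE; limma unadjusted p = 0.0282, adjusted p = 0.506). The 95% interval ran from 0.18 to 2.54.

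Gfi1b, a repressor that recruits the demethylase Kdm1a, had levels of 7.40 and 7.65 in space flight, against 5.74 and 6.35 in ground control. The groups lay 1.05 apart at their nearest points, and both ground control levels were under the dim limit, so the size of the difference rests on values near the background of the array. The difference was 1.48 ± 0.59 (SE; limma unadjusted p = 0.0334, adjusted p = 0.530). With 64 in place of 16 added to the intensities it was 1.02, and with 1 added it was 1.75.

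Ldb1, whose protein joins distant sites on DNA by pairing with itself, reached 8.54 and 8.22 in space flight and 6.87 and 7.67 in ground control. Here flight array 1 was the higher of the 2, unlike for Klf1, and the ground control arrays differed by more than the flight arrays did. The difference of 1.11 ± 0.46 (SE) had an unadjusted p of 0.0400 and an adjusted p of 0.543 in limma, and it was 0.71 without ground control replicate 1.

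Nfe2, the large subunit of a globin and platelet gene activator, gave 8.10 and 8.11 in space flight, against 6.38 and 7.63 in ground control. The flight arrays were almost equal, while ground control array 1 lay well under ground control array 2, with a difference between groups of 1.10 ± 0.54 (SE; limma unadjusted p = 0.0728, adjusted p = 0.613). Leaving out ground control replicate 1 gave 0.48, and leaving out ground control replicate 2 gave 1.72.

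The basic helix-loop-helix genes both had higher levels in flight without passing. Lyl1, the relative of Tal1, had 11.57 and 11.85 in space flight and 11.30 and 10.96 in ground control. The groups did not overlap, with a difference of 0.58 ± 0.23 (SE; limma unadjusted p = 0.0320, adjusted p = 0.522). The SE rests on limma's intensity trend, without which it was 0.35 and the unadjusted p 0.163. Tal1, which pairs with E proteins in the same complex, had 8.82 and 8.64 in space flight and 8.31 and 8.42 in ground control. These groups did not overlap either, but the difference was 0.36 ± 0.34 (SE; limma adjusted p = 0.797), with a 95% interval from −0.41 to 1.13. With each array shifted to 1 median, Lyl1 stood at 0.36 and Tal1 at 0.17.

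Neither GATA gene had a higher mean in flight. Gata2 on its dimmer probe set had 4.45 and 4.59 in space flight, against 6.75 and 7.15 in ground control. The deposited intensities behind them were 5.46 and 10.5 in space flight and 84.1 and 118 in ground control. Both flight values lay far under the dim limit, so that the size of the gap depends on the 16 added to the intensities. The difference was −2.43 ± 0.61 (SE; limma unadjusted p = 0.00359, adjusted p = 0.388), from −3.83 to −1.04 in its 95% interval, and it was −3.80 with 1 added and −1.28 with 64 added. The mean over the 4 arrays, 5.73, was under the dim limit. On its brighter probe set Gata2 had 7.73 and 8.03 in space flight, against 8.08 and 8.44 in ground control. Flight was lower again but only 0.06 separated the groups, and the difference was −0.38 ± 0.40 (SE; limma adjusted p = 0.823), with a 95% interval from −1.29 to 0.52. It was −0.24 with flight array 1 left out and −0.21 with ground control array 2 left out. Both are of the maker's class for probes shared by several transcripts of 1 gene, and which Gata2 transcripts each covers was not analysed here. Gata1 had 6.30 and 6.81 in space flight, against 6.59 and 7.37 in ground control. All 4 values lay near the dim limit and the groups overlapped, with a difference of −0.42 ± 0.61 (SE; limma adjusted p = 0.884) and a 95% interval from −1.81 to 0.96. The interval holds both a fall of more than 2-fold and a rise of nearly 2-fold, and the difference was −0.81 with ground control replicate 1 left out and −0.04 with ground control replicate 2 left out.

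The cofactors Zfpm1 and Lmo2 showed no stable direction. On its brighter probe set Zfpm1 had 7.91 and 8.996 in space flight, against 7.75 and 8.28 in ground control. Flight array 2 alone stood above the ground control arrays, and the difference was 0.44 ± 0.47 (SE; limma adjusted p = 0.829), or −0.11 with space flight array 2 left out and 0.98 with space flight array 1 left out. The dimmer Zfpm1 probe set had 4.30 and 4.59 in space flight and 5.10 and 4.62 in ground control, all below the dim limit, and a difference of −0.41 ± 0.39 (SE; limma adjusted p = 0.804). Lmo2, the bridge between the GATA and helix-loop-helix proteins, had 10.91 and 11.83 in space flight, against 12.05 and 11.34 in ground control. Each group had 1 high and 1 low array, and the difference of −0.32 ± 0.34 (SE; limma adjusted p = 0.829) was 0.14 when space flight replicate 1 was left out and 0.03 when ground control replicate 1 was left out.

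**Figure D3:**
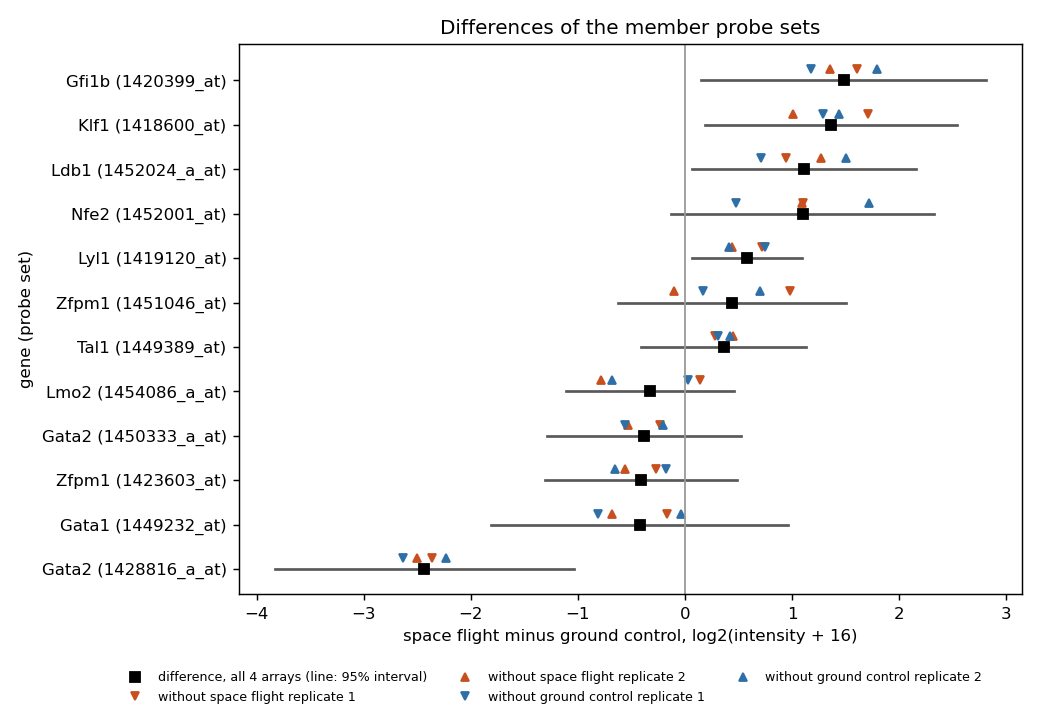
Difference of each member probe set, space flight minus ground control on the log2(intensity + 16) scale, with its 95% interval from limma; small triangles above each line are the differences with 1 array left out. Gfi1b, Klf1, Ldb1 and Lyl1 have intervals above 0 and the dimmer Gata2 probe set has one below 0, none of them after adjustment over all probe sets, and the triangles of Lmo2 and of the brighter Zfpm1 probe set fall on both sides of 0.

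The quality of the RNA differed between arrays. The RNA integrity number was 3 for all 4 samples, and the 3' over 5' ratio of Gapdh control probes, which grows as RNA is broken, stood at 4.09 and 15.2 in space flight and 4.13 and 3.33 in ground control; that of Actb was 3.08 and 4.91 in space flight and 2.30 and 2.84 in ground control. The same ratio for the transferrin receptor ran otherwise, at 5.50 and 3.47 in space flight and 4.96 and 7.84 in ground control, lowest on flight array 2. Klf1, Lmo2 and the brighter probe set of Zfpm1 were the members furthest apart between the 2 flight arrays, each higher on array 2. Without space flight replicate 2, 1 member probe set was higher and 2 were lower at an unadjusted p under 0.05, against 5.94% and 5.9% of all probe sets. Without space flight replicate 1, 4 were higher and 1 was lower, against 7.72% and 8.28%. Without ground control replicate 1, 0 were higher and 1 was lower, against 1.37% and 2.39%, and without ground control replicate 2, 1 was higher and 1 was lower, against 1.67% and 2.48%. The amounts of RNA given were 21.2 and 25.0 ng in space flight and 12.5 and 24.1 ng in ground control, although 50 ng is stated as primed. These amounts could not be matched to single arrays. What part RNA quality or amount has in the differences was not tested.

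Genes that these factors control in red cells stood higher as a list. Of 32 listed genes 26 were matched to a probe set of their own, and the median difference of these 26 was 0.88, against 0.03 over all genes. The mean over the 4 arrays reached the dim limit for 20 of them, and the ground control mean reached it for 16. None of the 26 passed the test over all probe sets. At an unadjusted p under 0.05, 8 were higher (5.07% of all genes) and 1, Hba-a2, was lower (5.06%). The levels of Hba-a2 lay under the dim limit on all 4 arrays. For 16 of the 26 both space flight levels lay above both ground control levels (21.5% of all genes), and for 1 both lay below (19.6%). The median stayed between 0.64 and 0.95 with any 1 array left out, while the count higher at that p was 5 with space flight replicate 2 left out (5.94% of all probe sets) and 3 with ground control replicate 1 left out (1.37%). An earlier analysis of these arrays had found erythroid markers higher, so this is no independent evidence.

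Slc4a1, the anion exchanger of the red cell membrane, had 12.42 and 13.39 in space flight and 10.05 and 11.43 in ground control, a difference of 2.17 ± 0.45 (SE; limma adjusted p = 0.327). Its 2 other probe sets gave 0.88 and, below the dim limit, −1.30. Tspan33, a membrane protein of red cell precursors, had 9.55 and 10.26 in space flight, against 8.26 and 8.28 in ground control, a difference of 1.63 ± 0.34, with 0.73 on its other probe set above the dim limit and 0.12 and −0.89 on 2 below it. For both genes the groups did not overlap on the probe set used, which is of a class that can also bind other transcripts. Epb42, a membrane skeleton protein, differed by 1.92 ± 0.52 with ground control levels of 4.11 and 4.33, far under the dim limit, and its other probe set gave −0.92. The mitochondrial iron carrier Slc25a37 differed by 0.95 ± 0.29. Tfrc and Blvrb, for iron uptake and haem breakdown, had differences of −0.14 ± 0.24 and −0.42 ± 0.26 (SE), with overlapping groups. The 2 other Tfrc probe sets gave −0.66 and −2.14, each without overlap. Which cells of the cultures expressed the listed genes, higher or lower, was not tested. The alpha globin genes Hba-a1 and Hba-a2, near-identical copies named after their values were seen, stood at 0.55 and −1.12. Hba-a2 was under the dim limit throughout. Hba-a1 lay just above it, with a mean of 6.78 (limma unadjusted p = 0.376). These probe sets therefore give no direction for alpha globin. Probe sets annotated with several gene symbols were not assigned to a gene, so any shared by both copies were not examined.

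Genes of megakaryocytes and platelets had no common direction. Over 20 matched genes of 23 the median difference was 0.22, with 2 higher (5.07% of all genes) and 2 lower (5.06%) at an unadjusted p under 0.05 and 0 past the adjusted test. The groups were apart with space flight above for 6 genes (21.5% of all genes) and below for 3 (19.6%). The platelet chemokine Ppbp had 8.08 and 8.30 in space flight and 6.65 and 7.18 in ground control, a difference of 1.27 ± 0.47 (SE). The fibrinogen receptor subunit Itga2b had 8.97 and 8.04 in space flight, against 6.75 and 7.70 in ground control, a difference of 1.28 ± 0.52. Thbs1 and Tbxas1 were the lower ones, at −1.46 ± 0.45 and −0.66 ± 0.26, with −0.33 and overlapping groups on the other Thbs1 probe set. For this list too, the cells that expressed the genes were not tested. Pf4, the second platelet chemokine, and Plek, the pleckstrin gene, stood at −0.04 ± 0.18 and −0.07 ± 0.18, although 2 other probe sets of Plek gave −1.55 and −0.50. The median of the list was −0.04 and 0.42 with space flight replicate 2 or 1 left out, and −0.12 and 0.57 with ground control replicate 1 or 2 left out.

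Partners and co-regulators of the factors were spread around 0. All 34 were matched, with a median difference of 0.11, 3 higher (5.07% of all genes) and 1 lower (5.06%) at an unadjusted p under 0.05, and 0 past the adjusted test. With each array shifted to 1 median, the list stood at −0.08 and all genes at −0.10. Both flight levels were above for 10 genes (21.5% of all genes) and below for 9 (19.6%). Kdm1a, the demethylase that works with Gfi1b, had 11.23 and 11.01 in space flight and 10.54 and 10.08 in ground control, a difference of 0.81 ± 0.25 (SE; limma adjusted p = 0.427), and 0.67 on its other probe set. Mafg, a small Maf partner of Nfe2, had 12.35 and 12.27 in space flight, against 11.55 and 11.86 in ground control, a difference of 0.60 ± 0.20, but its other probe set gave −0.27. Lmo4, a LIM-only protein that also binds Ldb1, differed by 0.85 ± 0.28. Tcf12, an E protein that pairs with Tal1, was the lower one at −0.56 ± 0.20, and its 4 other probe sets ran from −1.24 to 0.18. Bach1, which competes with Nfe2 for small Maf proteins, stood at −0.24 ± 0.18, and at −0.04 on its other probe set.

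Genes of erythropoietin and thrombopoietin signalling stood slightly lower. The median was −0.30 over 14 matched genes of 16, with 1 higher (5.07% of all genes) and 2 lower (5.06%) at an unadjusted p under 0.05 and 0 past the adjusted test. Csf2rb, the shared beta receptor chain of myeloid cytokines, had 13.40 and 13.31 in space flight and 14.42 and 14.29 in ground control, a difference of −1.00 ± 0.17 (SE; limma adjusted p = 0.237), with −0.82 on its other probe set. Sh2b3, an inhibitor of these receptors, differed by −1.13 ± 0.34 and by −0.46 on its other probe set, and Socs3, a feedback inhibitor of cytokine receptors, by 1.42 ± 0.47 with its 2 other probe sets at 1.77 and 1.25. Pik3r1 stood at −0.46 ± 0.28, with 3 other probe sets from −0.75 to −0.12, and the adaptor Gab2 at 0.16 ± 0.19, with 0.15 and −0.47 on 2 others. The erythropoietin receptor Epor, named after its values were seen, had 6.76 and 6.50 in space flight, against 7.29 and 6.66 in ground control, values that overlapped near the dim limit.

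**Figure D4:**
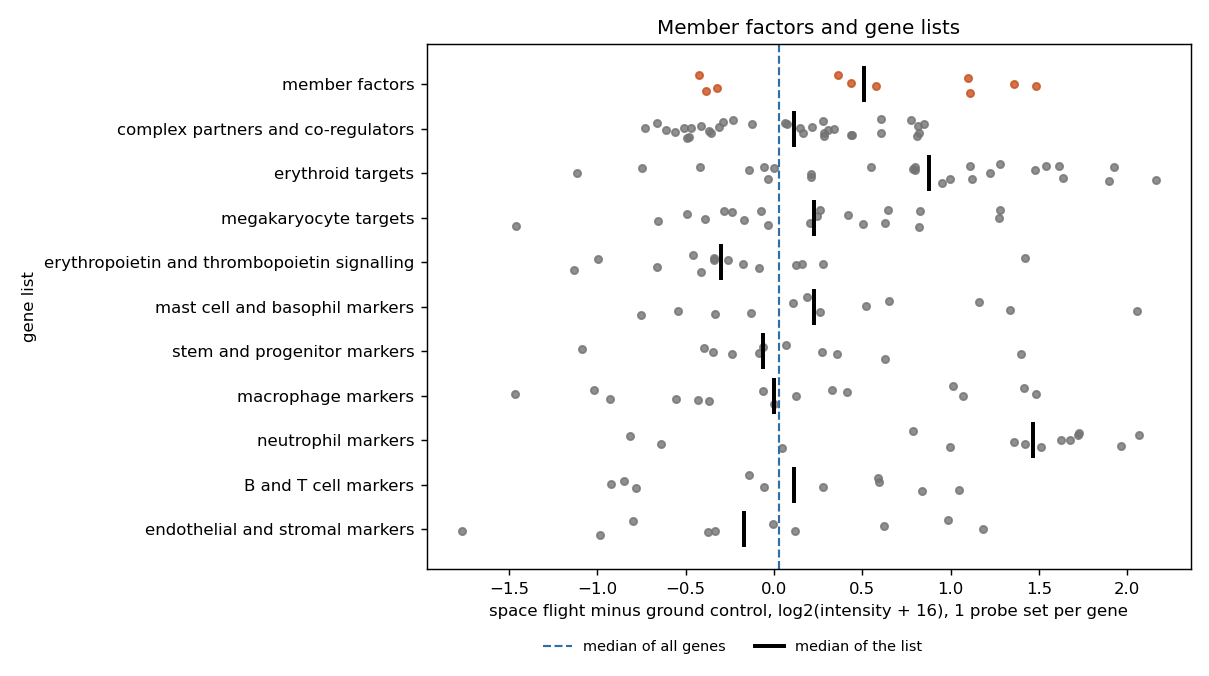
Difference of each gene in the 10 factors and the 10 gene lists, 1 probe set per gene; the x axis is space flight minus ground control on the log2(intensity + 16) scale, thick bars are list medians and the dashed line is the median of all genes, 0.03. The factors have a median of 0.51, the erythroid targets of 0.88 and the neutrophil markers of 1.47, and the other lists lie between −0.30 and 0.22.

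Markers of other cells also differed, and their part in these results was not tested; in cultures lysed as a whole, fewer cells of a type and less RNA per cell cannot be told apart. The M-CSF receptor Csf1r, a macrophage marker, was bright on all arrays, at 14.87 and 14.91 in space flight and 15.28 and 15.24 in ground control, with differences of −1.20 and −0.95 on its 2 other probe sets. The macrophage list had a median of 0.0007 over 15 genes, with 2 higher (5.07% of all genes) and 5 lower (5.06%) at an unadjusted p under 0.05. This median was −0.15 and −0.26 with flight array 1 or 2 left out, −0.33 and 0.28 with ground control array 1 or 2 left out, and −0.21 over the 12 genes that reached the dim limit. Neutrophil markers had a median of 1.47 over 14 genes, with 11 higher (5.07% of all genes) and 1 lower (5.06%) at an unadjusted p under 0.05, and mean levels of 10.71 and 11.03 in space flight and 9.65 and 9.89 in ground control. None of them passed the adjusted test over all probe sets. With 1 probe set per gene and the dim ones left out, 2 passed as higher, where 0.0628% of genes passed. Lyl1 and Gfi1b are known in myeloid cells as well, and which cells expressed any of the 10 factors was not tested. Among mast cell and basophil markers, which go with Gata2, only 2 of 12 genes reached the dim limit, and the list's summed intensity was 750 and 1323 in space flight and 488 and 526 in ground control. The median difference of these 12 was 0.22, with 8 above 0. The basophil protease Mcpt8 differed by 1.34 ± 0.50 (SE), and the mast cell proteases Mcpt1 and Tpsab1 by 1.16 and 0.26. Hdc, the histamine enzyme, differed by 2.06 ± 0.67 (SE) with a ground control mean of 5.33, under the dim limit, and by 0.22 on its other probe set. The receptor subunit Ms4a2 stood at −0.75, and Fcer1a, named after its values were seen, at −0.55, both dim; none of these passed the adjusted test. Stem and progenitor markers had a median of −0.06 over 11 genes, and mean levels of 7.18 and 7.35 in space flight and 7.20 and 7.24 in ground control. Within it Sox4 stood at 1.40 ± 0.52, with 7 other probe sets from −0.90 to 1.72, and Hoxa9 at −1.09 ± 0.63, with 0.25 on its other probe set. Markers of B and T cells and of endothelium and stroma had medians of 0.11 and −0.17 over 10 genes each, with mean levels on single arrays from 5.78 to 6.29 that lay under the dim limit.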

How the data were processed

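The deposited table holds 1 linear intensity per probe set and array, made by the authors with GCOS, per the submitters' processing notes; no source used here gives its version, algorithm or scaling target. All 4 deposited columns share 1 trimmed mean. In R 4.3.3, 16 was added to each intensity before log2, 64 control probe sets were left out, and the arrays were quantile normalized, since their medians differed by up to 0.385. limma 3.58.1 (lmFit, eBayes with intensity trend, two-sided) was fitted to all 45037 probe sets with Benjamini-Hochberg adjustment at 0.05, with 2 residual and 8.55 moderated degrees of freedom. The smallest two-sided p of an exact permutation with 2 arrays per group is 0.333. The procedure was tested on simulated data with independent noise and with differences larger than those of most members. That test does not tell how often differences of the size seen here would be found. The small number of arrays limits the precision.

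Gene names came from the platform annotation (34945 probe sets with 1 symbol, 932 with several, 9160 unnamed here); the sources name no build for the probe sets. The factors and gene lists were chosen with earlier results of these data known. Named genes were all factors and, of each of 10 lists, genes among the 2 brightest and the 4 of largest absolute moderated statistic. Alternatives were 3 other array scalings, pseudocounts of 1 and 64, a filter on dim probe sets, no trend, 1 probe set per gene, the mean of a gene's probe sets, each array left out and the replicate number as a block.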

Additional observations from a re-analysis of the deposited data

How the results depend on the processing

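No member probe set passed the adjusted test under any of the 13 alternative fits. The count over all probe sets, 0 here, with 1865 higher and 2071 lower at an unadjusted p under 0.05, was 4 with values as deposited, 7 with log2(value + 1), 11 with the dim filter and 7 with 1 probe set per gene. With the replicate block it was 231, of which 0 were members; the smallest adjusted p of a member was then 0.167, while 2 erythroid targets, 6 neutrophil markers and 0 megakaryocyte targets passed as higher, and 1 signalling gene and 1 macrophage marker passed as lower. The labels do not say that equal numbers mark a pair, and deviations of same-numbered arrays correlated at 0.027 over all probe sets. The median difference of the 10 genes was 0.30 to 0.52 under the alternatives that kept all arrays, and 0.39 to 0.83 with 1 array left out. Of 140 differences of single genes under the alternatives, 137 kept their sign. Many of these could not change, because several alternatives use the same levels. The dim filter, no trend, 1 probe set per gene, the mean of a gene's probe sets and the replicate block left every difference as it was. Lmo2 changed sign, to 0.14 with space flight replicate 1 left out and 0.03 with ground control replicate 1 left out. Zfpm1 did so too, at −0.11 with space flight replicate 2 left out. With 1 array left out Lmo2 ranged from −0.78 to 0.14 and Zfpm1 from −0.11 to 0.98. Values as deposited and a shift to 1 median moved the median of all genes to 0.10 and −0.10. With that shift 2 members were higher and 1 lower at an unadjusted p under 0.05, against 2.32% and 6.24% of all probe sets.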
